A study of Mus musculus with 18 samples.

Results

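The 46 genes described here encode the machinery that copies DNA in S phase, and they were taken by name from the 54532 genes of the table. All 46 were present and all 46 were among the 14684 genes with enough reads to be tested. Polyadenylated RNA was sequenced from cultured macrophages, which had been derived from tibial marrow of mice aged 2 to 3 months. All mice carried Smad1 fl/fl alleles, which are flanked by loxP sites, and the knockout-labelled ones (MyS1KO) also carried LyzM-Cre, a Cre recombinase driven in myeloid cells from the lysozyme gene Lyz2. For 24 h the marrow was cultured in 15% serum with 12 ng/ml CSF-1, the growth factor of macrophages, and 10% medium conditioned by WEHI-3 cells. Cells that had not attached were then grown at 120 ng/ml CSF-1 for 48 h and deprived of serum for about 16 h. The groups were untreated cells, cells with TGF-β1 at 10 ng/ml and cells with BMP4 at 50 ng/ml, the ligands being present for 4 h. This gave 6 groups of 3 libraries, numbered 1 to 3. The labels do not say whether the 3 came from separate animals or cultures, so p-values measure only the spread between these libraries, which may in part be technical.

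Replication starts with licensing. In G1 the origin recognition complex (Orc1, Orc6), with the loaders Cdc6 and Cdt1, places the ring of Mcm2 to Mcm7 on DNA. At the start of S phase Cdc45 and the GINS proteins (Gins1 to Gins4), helped by Mcm10, join this ring and turn it into the working helicase. Polymerase α with primase starts new strands, polymerases δ and ε extend them on the sliding clamp PCNA, and enzymes of nucleotide synthesis supply the building blocks. Many of these genes are targets of the E2F transcription factors, which the retinoblastoma protein restrains in resting cells. TGF-β1 is best known in epithelial cells as an inhibitor of entry into S phase, and CSF-1 drives macrophages to divide.

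Total counts ran from 15153296 to 24639163 per library. All 14 macrophage markers had a mean of at least 1 CPM (read counts per library total, the totals adjusted by TMM). The same line was reached by 9 of 12 neutrophil, 6 of 6 monocyte, 5 of 7 osteoclast and 4 of 9 progenitor markers. Summed per library, macrophage markers lay at 14366 to 17846 CPM and neutrophil markers at 107 to 248 CPM. Lyz2, the site of the Cre insertion, went against the genotype labels: it lay at 13449 to 17786 CPM in the 9 knockout-labelled libraries, at 8118 to 9872 CPM in floxed-labelled libraries 2 and 3, and at 37.6 to 74.3 CPM in the 3 floxed-labelled libraries numbered 1. Smad1, the targeted gene, was read in every library, at 22.2 to 31.1 CPM in floxed-labelled and 19.5 to 26.8 CPM in knockout-labelled ones, and it is not known which exon is deleted. Groups are therefore called by their labels, and any higher or lower between them is only as good as those labels, which Lyz2 contradicts. Of the 46 genes, 13 overlap a gene with over 10% of their own counts (Orc1, Orc6, Mcm7, Cdc45, Gins2, Rfc2, Rfc4, Rfc5, Fen1, Lig1, Tk1, Ccne2 and Chaf1a), and their values are less certain because the strand setting of the counting is not given. Counts and medians with TGF-β1 are also given without the floxed-labelled libraries numbered 1, as a fit of 15 libraries. For single genes of the 46 that fit is named where it ended a call. In that fit 13.2% of all genes were called higher in floxed-labelled cells. Its share of all genes called lower there, and its shares in knockout-labelled cells, are not given. A range over libraries cannot widen when some are left out, so groups given here as not overlapping do not overlap without them either.

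The promoters of the 3 genes that led the response to TGF-β1, Cdt1, Mcm6 and Ung, are shown first. They come from RefSeq (GRCm38.p6, the build of the files), each with 250 bases before and 50 from RefSeq's annotated start on, read 5′ to 3′ along the gene. Capitals mark matches to an E2F site (TTTCCCGC, TTTGGCGC, TTTCGCGC or TTTGCCGC, both strands) and to a CCAAT box (CCAAT, both strands).
Cdt1, chr8:122567765-122568064, plus strand: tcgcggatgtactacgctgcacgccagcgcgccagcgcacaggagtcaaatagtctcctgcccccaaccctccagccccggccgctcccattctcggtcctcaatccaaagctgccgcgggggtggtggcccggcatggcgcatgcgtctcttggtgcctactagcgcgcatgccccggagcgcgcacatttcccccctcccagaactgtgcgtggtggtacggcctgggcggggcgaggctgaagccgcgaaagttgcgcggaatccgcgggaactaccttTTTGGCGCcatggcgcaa
Mcm6, chr1:128359656-128359955, minus strand: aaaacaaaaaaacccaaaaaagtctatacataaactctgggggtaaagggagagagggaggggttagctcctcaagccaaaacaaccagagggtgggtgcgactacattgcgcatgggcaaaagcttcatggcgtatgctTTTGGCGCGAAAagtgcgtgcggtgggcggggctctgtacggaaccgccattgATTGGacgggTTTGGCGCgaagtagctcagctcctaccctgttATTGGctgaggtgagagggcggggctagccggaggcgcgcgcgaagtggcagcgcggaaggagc
Ung, chr5:114130185-114130484, plus strand: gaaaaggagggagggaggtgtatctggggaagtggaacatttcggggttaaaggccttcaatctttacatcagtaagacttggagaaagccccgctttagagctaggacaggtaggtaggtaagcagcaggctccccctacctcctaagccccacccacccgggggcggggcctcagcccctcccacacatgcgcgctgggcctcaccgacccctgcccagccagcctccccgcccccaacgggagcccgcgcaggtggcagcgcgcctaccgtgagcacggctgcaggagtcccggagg
Cdt1 held 1 E2F match, which begins at base 33 of the transcript. Mcm6 held 3 E2F matches, of which the first 2 overlap, and 2 CCAAT matches on the opposite strand. Ung held neither motif in this window. Of the 46 genes, 38 had an entry in the promoter table, and 15 of these 38 (39.5%) held an E2F match, against 704 of 27025 genes in the table (2.6%). The matches were unevenly placed: 7 of 9 licensing genes held one, 6 of 14 fork genes and 0 of 6 nucleotide genes. A match stood in 7 of the 15 genes that were called higher with TGF-β1 in floxed-labelled cells (46.7%) and in 8 of the 23 that were not called (34.8%). A CCAAT match stood in 21 of the 38 (55.3%, against 41.1% of all genes), and TTTGAA, the CHR element of G2/M genes, in 4 of them (10.5%, against 20.2%). These matches are descriptions of letters and not of binding.

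In untreated cells the 46 genes differed widely in level. On the FPKM scale, which allows genes of different length to be compared, the median gene lay at 3.68 FPKM in untreated floxed-labelled cells and 27 of the 46 lay under 5 FPKM. Pcna, the sliding clamp, was highest at 73.9 ± 10.1 FPKM (SD, n = 3). Gins4, a subunit of the helicase, followed at 21.4 ± 1.63 FPKM, then Mcm6 at 15.7 ± 2.36 FPKM and the transcription factor E2f1 at 14.4 ± 0.742 FPKM. The last 2 overlap in their spread, so their order is not resolved. Orc1, the largest subunit of the origin recognition complex, lay at 1.02 ± 0.326 FPKM, and Ung, the uracil-DNA glycosylase that removes uracil from DNA, was lowest at 0.173 ± 0.0605 FPKM.

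TGF-β1 raised a subset of these genes in cells of both labels. In floxed-labelled cells 16 of the 46 rose and 0 fell (34.8%), while 33.0% of all genes tested were called in either direction, 17.0% higher and 16.0% lower. The share called was thus near that of all genes, and the difference lay in the direction. The median gene of the 46 changed by log2 0.31, against 0.0042 over all genes, and 40 of the 46 had a change above 0, against 50.6% of all genes. In knockout-labelled cells 15 rose and 1 fell, with 34.6% of all genes called, 17.6% higher and 17.1% lower, and a median of log2 0.17. In the 15 libraries the medians were log2 0.29 and 0.17. Single libraries moved them: the floxed-labelled median ran from log2 0.20 (without untreated library 2) to 0.38 (without untreated library 3) and the knockout-labelled one from log2 0.13 (without untreated library 2) to 0.29 (without TGF-β1 library 2), all above 0. The 2 comparisons share no library but come from the same fit, with a shared estimate of the spread. Of the 46 genes 14 were called higher in both, and the share of all genes called higher in both was not counted. Chaf1b and Orc6 were called in floxed-labelled cells alone, and Rrm2 and E2f1 in knockout-labelled cells alone, but no gene of the 46 differed in its response between the labels (lowest edgeR adjusted p of the difference 0.999866). These calls used edgeR's quasi-likelihood test at an adjusted p under 0.05 over all genes. In bulk RNA such as this, more cells in S phase and more RNA per cell cannot be told apart.

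The counts of calls depended on how the libraries were paired. Libraries of the same label and number deviated together, and with the replicate block within genotype 24 genes rose and 1 fell in floxed-labelled cells, where 20.1% of all genes were called higher and 19.5% lower. In knockout-labelled cells 19 rose and 1 fell, with 20.2% of all genes called higher and 20.1% lower. The block added Mcm2, Lig1 and Ccne2 in both labels, Gins2, Pole, Fen1, Rrm2, Uhrf1 and, downward, E2f1 in floxed-labelled cells, and Gins1 in knockout-labelled cells. The 15-library fit called 9 of the 46 in floxed-labelled cells, all higher, with 13.2% of all genes called higher, and 16 higher and 1 lower once the block was added (16.2% and 16.5% of all genes). In floxed-labelled cells the count was 7 when untreated library 2 was left out (27.8% of all genes called), 7 when TGF-β1 library 3 was (28.2%) and 9 when TGF-β1 library 1 was (28.1%). In knockout-labelled cells it was 10 without TGF-β1 library 3 (28.8%). In those fits the share of the 46 that was called lay below the share of all genes.

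**Figure D1:**
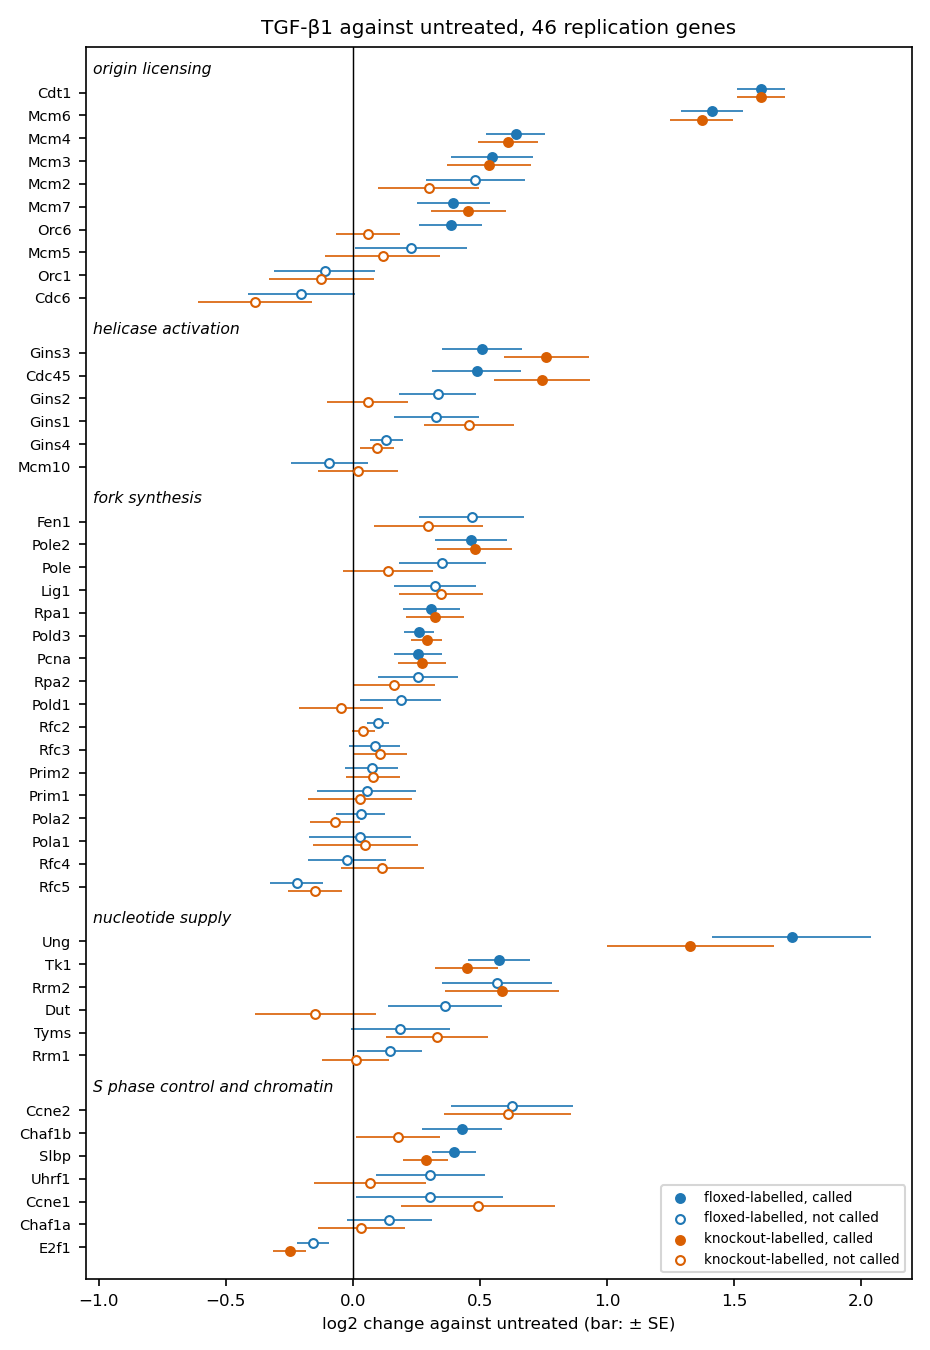
Log2 change with TGF-β1 against untreated (x axis, bars ± SE) for the 46 genes, grouped by role, in floxed-labelled (blue) and knockout-labelled (orange) cells, 3 libraries per group; filled points were called by edgeR. Cdt1, Mcm6 and Ung stand apart at log2 1.33 to 1.73, and the other 43 lie between log2 −0.38 and 0.76.

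Cdt1 (ENSMUSG00000006585, chromosome 8, 122568015 to 122573554, mm10), the loader that brings the Mcm ring to origins, had the firmest rise. Untreated floxed-labelled libraries 1 to 3 held 22.2, 18.1 and 18.3 CPM, and 65.2, 58.9 and 54.9 CPM with TGF-β1. Knockout-labelled libraries held 21.2, 22.2 and 19.0 CPM untreated and 65.1, 67.6 and 57.6 CPM with TGF-β1. Every TGF-β1 library lay above every untreated one by a wide margin, and the rise was 3.04-fold in both labels (log2 1.61, SE 0.09 and 0.10, edgeR adjusted p = 7.03e-11 and 9.73e-11). In the 15 libraries the floxed-labelled rise was log2 1.64 (SE 0.10). The difference between the labels was log2 0.00079 (SE 0.14). Its inhibitor geminin (Gmnn), which keeps Cdt1 from relicensing origins in S phase, was at log2 0.26 and 0.25 (edgeR adjusted p = 0.0529 and 0.0744) and was called higher in both labels with the replicate block (edgeR adjusted p = 0.0203 and 0.0444). The ratio of Cdt1 to Gmnn FPKM went from 0.373 to 0.478 in untreated floxed-labelled libraries to 1.03 to 1.17 with TGF-β1, and from 0.476 to 0.546 to 1.18 to 1.51 in knockout-labelled ones. A gene named Gm20388 spans Cdt1 on the same strand, with 0 counts in all libraries.

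Mcm6 (ENSMUSG00000026355, chromosome 1, 128331590 to 128359664), one subunit of the hexameric Mcm ring, rose almost as much. Floxed-labelled libraries held 77.9, 61.3 and 82.3 CPM of it untreated and 209, 189 and 192 CPM with TGF-β1. In knockout-labelled libraries it went from 75.3, 71.3 and 79.6 CPM to 201, 186 and 199 CPM. The groups were far from overlapping, with rises of 2.67-fold (log2 1.41, SE 0.12, edgeR adjusted p = 1.88e-08) and 2.59-fold (log2 1.37, SE 0.12, edgeR adjusted p = 3.36e-08). Without the libraries numbered 1 the floxed-labelled rise was log2 1.40 (SE 0.16).

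The other subunits of the ring moved less, although the ring holds 1 copy of each. Mcm4 was at 24.9, 20.9 and 29.0 CPM untreated and at 44.0, 32.6 and 40.0 CPM with TGF-β1 in floxed-labelled cells (log2 0.64, SE 0.12, edgeR adjusted p = 0.000218). In knockout-labelled cells it rose by log2 0.61 (SE 0.12, edgeR adjusted p = 0.000423), again with no overlap. Mcm3 rose by log2 0.55 and 0.54 and Mcm7 by log2 0.40 and 0.46 in the 2 labels. Neither Mcm3 nor Mcm7 was called in the floxed-labelled cells of the 15-library fit (edgeR adjusted p = 0.125 and 0.117). Mcm7 also shares its ends with the opposite-strand genes Cops6 and Ap4m1, which had 193% and 75.7% of its counts. Mcm2 was at log2 0.48 (SE 0.19, edgeR adjusted p = 0.0644) and 0.30 and was called in both labels with the replicate block (edgeR adjusted p = 0.000701 and 0.0484), while Mcm5 was at log2 0.23 (SE 0.22) and 0.12 (SE 0.23) and was not called.

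The make-up of the ring's transcripts therefore shifted. Mcm6 held 29.8% to 32.2% of the summed Mcm2 to Mcm7 FPKM in untreated floxed-labelled libraries and 44.7% to 49.2% with TGF-β1. The shares were 30.3% to 32.7% and 44.8% to 48.9% in knockout-labelled libraries, and 31.6% to 33.9% in the 6 BMP4 libraries. Mcm5 had the opposite course, from 15.0% to 17.3% untreated to 10.8% to 11.1% with TGF-β1 in floxed-labelled libraries. These shares describe RNA and not protein, and a larger share of Mcm6 lowers the others by construction.

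**Figure D2:**
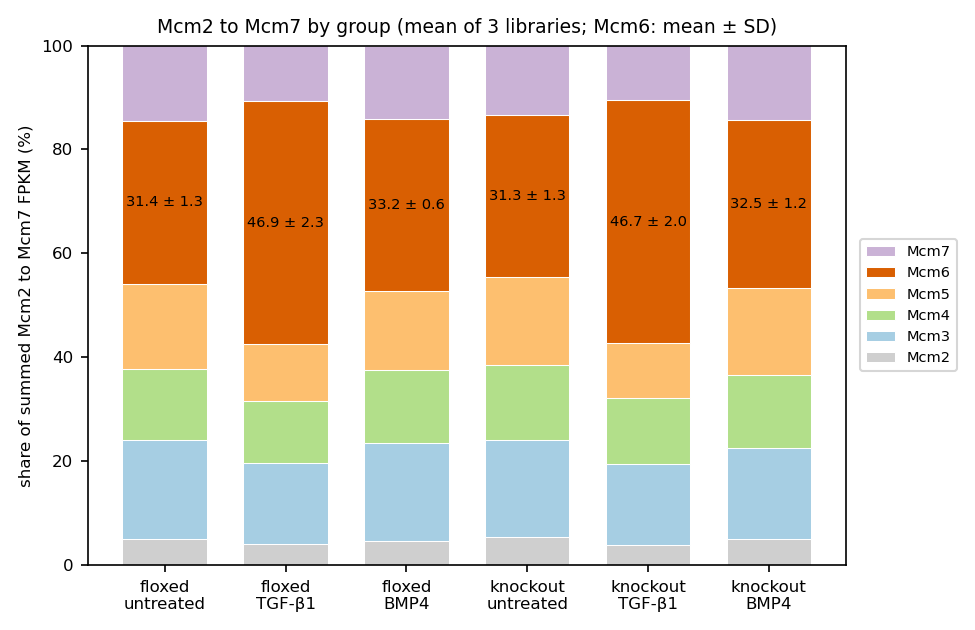
Share of each of Mcm2 to Mcm7 in their summed FPKM (y axis, percent), as the mean of 3 libraries in each of the 6 groups; numbers in the bars give Mcm6 as mean ± SD. Mcm6 holds 46.9% and 46.7% with TGF-β1 and 31.3% to 33.2% in the other 4 groups.

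The earliest licensing factors did not follow Cdt1. Orc1 was at log2 −0.11 (SE 0.20) and −0.12 (SE 0.21) in the 2 labels. Cdc6, the ATPase that loads the ring together with Cdt1, was at 7.75, 4.53 and 7.87 CPM untreated and 6.68, 5.27 and 5.61 CPM with TGF-β1 in floxed-labelled cells (log2 −0.20, SE 0.21, edgeR adjusted p = 0.519). In knockout-labelled cells it was at log2 −0.38 (SE 0.22, edgeR adjusted p = 0.205). The groups overlapped in both labels, so no change of Cdc6 was resolved. Orc6, the smallest subunit of the origin complex, rose in floxed-labelled cells from 6.89, 5.90 and 6.17 CPM to 7.96, 7.97 and 8.84 CPM (edgeR log2 0.38, SE 0.12, adjusted p = 0.0202) and was at log2 0.06 (SE 0.13) in knockout-labelled cells. Orc6 overlaps Vps35 on the opposite strand, which had 3570% of its counts, so its value is uncertain.

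Of the 6 genes that turn the ring into an active helicase, 2 rose in each label (17.0% and 17.6% of all genes called higher). Gins3 went from 4.71, 4.72 and 5.21 CPM to 7.46, 6.06 and 7.33 CPM in floxed-labelled cells (log2 0.51, SE 0.16, edgeR adjusted p = 0.0168) and rose by log2 0.76 (SE 0.17, edgeR adjusted p = 0.00133) in knockout-labelled cells. Cdc45 rose by log2 0.49 (SE 0.18, edgeR adjusted p = 0.0384) and 0.75 (SE 0.19, edgeR adjusted p = 0.00415), with no overlap between the groups in either label. Both calls in floxed-labelled cells were lost in the 15 libraries (edgeR adjusted p = 0.152 and 0.163). Cdc45 overlaps Ufd1 on the opposite strand. With the replicate block Gins2 was called in floxed-labelled cells (log2 0.33, edgeR adjusted p = 0.0408) and Gins1 in knockout-labelled ones (log2 0.45, edgeR adjusted p = 0.0201), and Gins4 and Mcm10 lay between log2 −0.09 and 0.13.

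Fork genes moved little, and 4 of 17 rose in each label (17.0% and 17.6% of all genes called higher): Pole2, Rpa1, Pold3 and Pcna. Pold3, a subunit of the lagging-strand polymerase δ, went from 42.4, 42.4 and 39.9 CPM to 48.3, 47.1 and 54.0 CPM (edgeR log2 0.26, SE 0.06, adjusted p = 0.00181) and was called in all 16 alternatives in each label. Pcna was at 192, 150 and 193 CPM untreated and at 224, 194 and 221 CPM with TGF-β1 in floxed-labelled cells (log2 0.26, SE 0.10, edgeR adjusted p = 0.0434). In knockout-labelled cells it went from 154, 169 and 172 CPM to 194, 197 and 207 CPM (log2 0.27, SE 0.10, edgeR adjusted p = 0.0333). The gap for Pcna in floxed-labelled cells was small, with a highest untreated library of 193 CPM and a lowest TGF-β1 library of 194 CPM, and the floxed-labelled call was lost in the 15 libraries (edgeR adjusted p = 0.0906). Pole2, the second subunit of the leading-strand polymerase ε, rose by log2 0.47 and 0.48, and Rpa1, the large subunit of the single-strand binding protein RPA, by log2 0.31 and 0.32. Rpa1 was not called in the floxed-labelled cells of the 15-library fit (edgeR adjusted p = 0.132). The polymerase α and primase genes (Pola1, Pola2, Prim1, Prim2) lay between log2 −0.07 and 0.08 in the 2 labels, and the clamp loader genes Rfc2 to Rfc5 between log2 −0.22 and 0.12, none of them called. Lig1, which seals Okazaki fragments, was called in both labels with the replicate block alone (log2 0.32 and 0.35, edgeR adjusted p = 0.00711 and 0.00501). Pole, the catalytic subunit of polymerase ε, and Fen1, the flap nuclease of Okazaki fragments, were called with the block in floxed-labelled cells (log2 0.36 and 0.46, edgeR adjusted p = 0.0169 and 0.0431).

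Among the nucleotide genes Ung showed the largest fold of all 46 in floxed-labelled cells, and the third after Cdt1 and Mcm6 in knockout-labelled cells, at a low level. Floxed-labelled libraries held 0.814, 0.708 and 1.33 CPM untreated and 2.84, 2.91 and 3.60 CPM with TGF-β1 (3.31-fold, log2 1.73, SE 0.31, edgeR adjusted p = 0.000214). In knockout-labelled libraries it lay at 0.907, 0.732 and 1.51 CPM and then 2.81, 2.12 and 2.99 CPM (log2 1.33, SE 0.33, edgeR adjusted p = 0.00359). The groups did not overlap, and a floor of 3 counts lay at 0.122 to 0.198 CPM, which covers counting error only. Tk1, the thymidine kinase of the salvage pathway, rose from 24.6, 23.1 and 31.5 CPM to 39.8, 36.2 and 41.9 CPM (edgeR log2 0.58, SE 0.12, adjusted p = 0.000976) and by log2 0.45 (SE 0.12) in knockout-labelled cells. Tk1 overlaps Afmid on the opposite strand, which had 16.9% of its counts. Rrm2, the small subunit of ribonucleotide reductase, was just inside the threshold in knockout-labelled cells (log2 0.59, SE 0.23, edgeR adjusted p = 0.0498) and just outside it in floxed-labelled ones (log2 0.57, SE 0.22, edgeR adjusted p = 0.0518). With the replicate block it was called in floxed-labelled cells too (log2 0.59, edgeR adjusted p = 0.000654), and in the 15 libraries it was called in neither label (edgeR adjusted p = 0.0651 in knockout-labelled cells). Its large subunit Rrm1 was at log2 0.15 and 0.01, and Tyms, which makes thymidylate, and Dut, which clears dUTP, were not called in either label.

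Of the 7 genes of S phase control and chromatin, Slbp, which binds histone mRNA, rose in both labels (log2 0.40, SE 0.09, edgeR adjusted p = 0.00136, and log2 0.29, SE 0.09, edgeR adjusted p = 0.0178). Chaf1b, a subunit of the chromatin assembly factor, was called in floxed-labelled cells (log2 0.43, SE 0.16, edgeR adjusted p = 0.0426), where its groups overlapped, and not in the 15 libraries (edgeR adjusted p = 0.176). E2f1 took the other direction. It fell from 46.4, 46.8 and 44.1 CPM to 36.2, 38.2 and 41.0 CPM in knockout-labelled cells (log2 −0.25, SE 0.07, edgeR adjusted p = 0.00554), with no overlap. In floxed-labelled cells it was at 43.7, 44.7 and 48.2 CPM and then 42.6, 38.3 and 41.5 CPM (log2 −0.16, SE 0.06, edgeR adjusted p = 0.0668), also with no overlap, and it was called lower there with the replicate block (edgeR adjusted p = 0.0393). Ccne2, a cyclin E that activates Cdk2, was called with the block in both labels (log2 0.63 and 0.61), and Uhrf1, which recruits the maintenance methyltransferase to new DNA, with the block in floxed-labelled cells (log2 0.31, edgeR adjusted p = 0.0450). Ccne1 and Chaf1a were not called in either label, with or without the block.

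**Figure D3:**
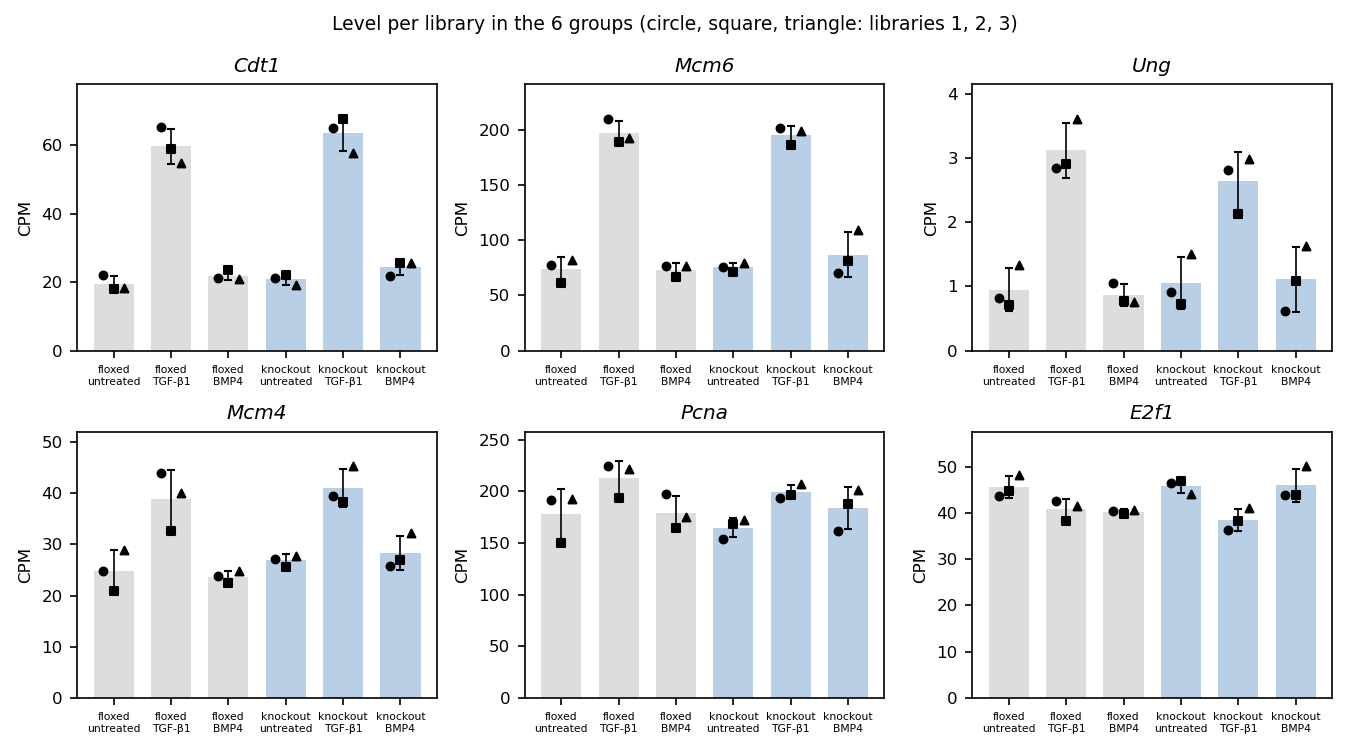
CPM per library (y axis, from 0) of Cdt1, Mcm6, Ung, Mcm4, Pcna and E2f1 in the 6 groups; bars are means of 3 libraries, error bars SD, and circles, squares and triangles the libraries numbered 1, 2 and 3. The TGF-β1 groups of Cdt1 and Mcm6 lie far above the other 4 groups, and those of Pcna lie close to them.

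Set side by side, the licensing genes had larger changes than the genes of fork synthesis and nucleotide supply. Without Cdt1 and Mcm6 the gap in mean level overlapped between untreated and TGF-β1 libraries. Of the 10 licensing genes 6 rose in floxed-labelled and 5 in knockout-labelled cells, with medians of log2 0.44 and 0.38. Of the 23 fork and nucleotide genes 6 and 7 rose, with medians of log2 0.26 and 0.14. Of all genes 17.0% and 17.6% were called higher. In the 15 libraries 4 and 5 of the licensing genes rose, with medians of log2 0.46 and 0.38. There 13.2% of all genes were called higher in floxed-labelled cells. The difference of mean log2 CPM, licensing minus fork and nucleotide, was 0.0761, 0.203 and 0.259 from the lowest to the highest untreated floxed-labelled library and 0.405, 0.463 and 0.484 with TGF-β1. It ran from 0.207 to 0.313 and then from 0.483 to 0.488 in knockout-labelled libraries, and from 0.125 to 0.243 in the 6 BMP4 libraries. All 6 TGF-β1 libraries thus lay above the other 12. Cdt1 and Mcm6 were left out after their values were seen, and from the licensing side only, while Ung and Tk1 stayed on the other. Such a choice narrows the gap by construction. Without Cdt1 and Mcm6 the other 8 licensing genes had medians of log2 0.39 and 0.21. The difference of mean log2 CPM then overlapped between the groups, at −0.217 to 0.0377 untreated and −0.0743 to −0.0309 with TGF-β1 in floxed-labelled libraries, and at −0.0481 to 0.0146 and −0.0811 to −0.00991 in knockout-labelled ones.

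Genes of the G2/M phase, which mark cells about to divide, had smaller medians. Of 22 such genes 2 rose and 0 fell with TGF-β1 in floxed-labelled cells and 1 rose and 1 fell in knockout-labelled cells, with medians of log2 0.05 and 0.10. Of all genes 17.0% and 17.6% were called higher and 16.0% and 17.1% lower. With the replicate block 4 rose and 1 fell and 6 rose and 1 fell (20.1% and 20.2% of all genes called higher). In the 15 libraries the G2/M counts were as without the block, with 13.2% of all genes called higher in floxed-labelled cells. The medians of the G2/M genes were then log2 0.06 and 0.10. Their summed level was 677 to 930 CPM untreated and 775 to 987 CPM with TGF-β1 in floxed-labelled libraries, and 691 to 871 and 840 to 939 CPM in knockout-labelled ones. These groups overlapped, but compared by library number the sum was higher with TGF-β1 in all 6 pairs. From library 1 to 3 it went from 930 to 987, 677 to 775 and 866 to 915 CPM in floxed-labelled cells and from 864 to 939, 691 to 840 and 871 to 919 CPM in knockout-labelled cells. The summed level of the 46 replication genes did not overlap, at 946 to 1210 CPM and 1330 to 1519 CPM in floxed-labelled and 1003 to 1131 CPM and 1320 to 1456 CPM in knockout-labelled libraries. This sum includes Cdt1 and Mcm6. For the 23 fork and nucleotide genes, which leave them out, the sums overlapped in floxed-labelled libraries (562 to 696 CPM untreated, 681 to 801 CPM with TGF-β1). They did not overlap in knockout-labelled ones (584 to 654 and 681 to 749 CPM).

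**Figure D4:**
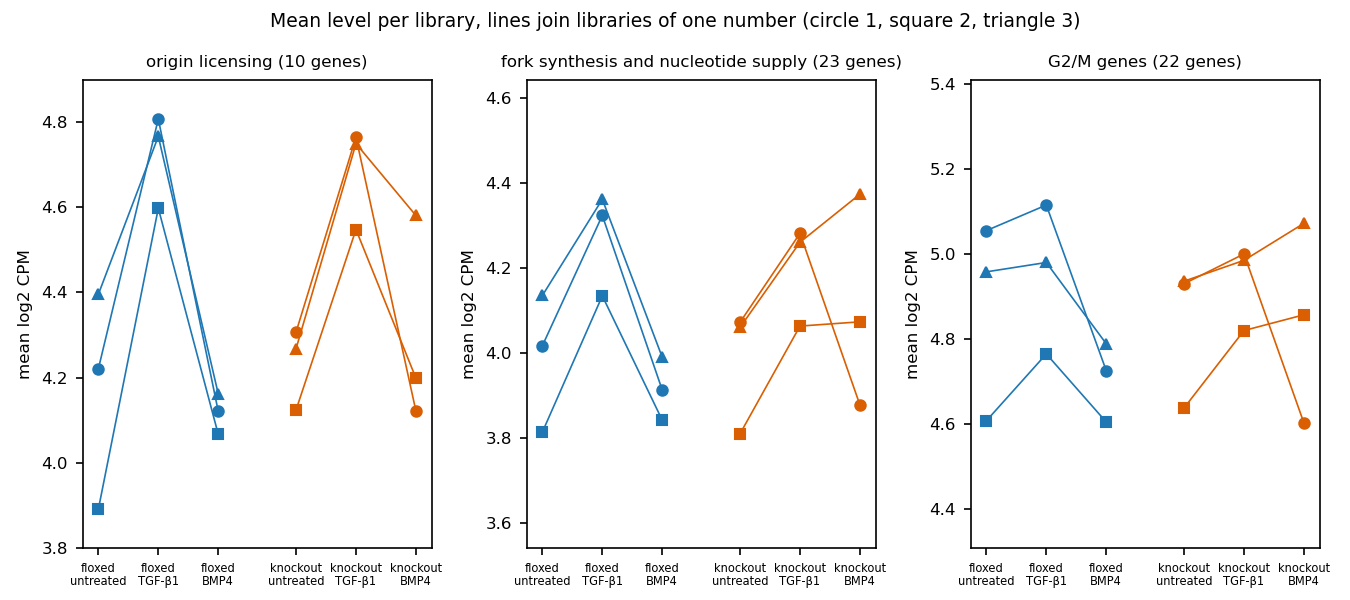
Mean log2 CPM per library (y axis, same span in each panel) of 10 licensing genes, 23 fork and nucleotide genes and 22 G2/M genes; lines join libraries of one label and number (circle 1, square 2, triangle 3; blue floxed-labelled, orange knockout-labelled). Libraries numbered 2 start lowest in each panel, and knockout-labelled BMP4 library 3 is the highest of its group.

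Of 46 other replication genes, 7 rose and 5 fell with TGF-β1 in floxed-labelled cells, where 17.0% of all genes were called higher and 16.0% lower. In knockout-labelled cells 9 rose and 6 fell, against 17.6% and 17.1% of all genes, so calls went both ways. The medians of this list lay above 0, at log2 0.15 and 0.18, against 0.0042 and 0.00026 over all genes. For the 46 genes described here they were log2 0.31 and 0.17. With the replicate block 18 rose and 6 fell (20.1% and 19.5% of all genes) and 17 rose and 6 fell (20.2% and 20.1%). In the 15 libraries 5 rose and 4 fell and 9 rose and 5 fell, with 13.2% of all genes called higher in floxed-labelled cells. Dna2, a nuclease that trims Okazaki fragments, went from 21.2, 19.4 and 19.5 CPM to 43.4, 36.9 and 37.9 CPM (edgeR log2 0.97, SE 0.08, adjusted p = 2.06e-08) and rose by log2 0.94 in knockout-labelled cells. Top1, a topoisomerase that relaxes DNA ahead of the fork, rose by log2 0.28 and 0.31, and Pole4, a small subunit of polymerase ε, by log2 0.33 and 0.39. Samhd1, which breaks down deoxynucleotides in resting myeloid cells, fell from 759, 908 and 742 CPM to 443, 470 and 441 CPM (edgeR log2 −0.83, SE 0.07, adjusted p = 1.50e-08) and by log2 −0.79 in knockout-labelled cells. Orc5, of the origin complex, fell by log2 −0.56 and −0.31 (edgeR adjusted p = 0.0521 in knockout-labelled cells in the 15 libraries), and Nudt1, which clears oxidised nucleotides, by log2 −0.49 and −0.58.

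Of 17 genes of the E2F and Rb family, 6 rose and 3 fell in floxed-labelled cells (17.0% of all genes called higher, 16.0% lower). In knockout-labelled cells 5 rose and 3 fell (17.6% and 17.1% of all genes). In the 15 libraries 4 rose in floxed-labelled cells (13.2% of all genes called higher), with E2f7 and Tfdp1 no longer called. The other counts were the same. The genes of this and the next list are named after their values were seen. E2f2, an activator like E2f1, went from 18.8, 10.0 and 16.4 CPM to 68.7, 56.6 and 56.0 CPM in floxed-labelled cells and from 16.3, 10.4 and 15.0 CPM to 68.8, 51.8 and 53.3 CPM in knockout-labelled cells (log2 2.00 and 2.06). The retinoblastoma gene Rb1, which restrains the activators, fell from 95.8, 104 and 99.8 CPM to 67.1, 69.8 and 69.1 CPM in floxed-labelled cells, with no overlap (log2 −0.54, and −0.63 in knockout-labelled cells), and its relative Rbl2 fell by log2 −0.71 and −0.64. The largest fall of the list was that of Cdk6, a kinase that with D cyclins inactivates the retinoblastoma protein. It went from 148, 131 and 143 CPM to 69.3, 75.3 and 68.3 CPM in floxed-labelled cells (log2 −0.99) and from 154, 150 and 172 CPM to 75.7, 61.8 and 68.7 CPM in knockout-labelled cells (log2 −1.21), with no overlap. E2f3, E2f4 and Cdc25a also rose in both labels, by log2 0.24 to 0.71. Of 11 tested CDK inhibitors, D cyclins and Myc genes, 1 rose and 5 fell in floxed-labelled cells (16.0% of all genes called lower). In knockout-labelled cells 1 rose and 2 fell (17.1% of all genes called lower), and 6 fell with the replicate block (20.1%). In the 15 libraries 4 and 3 fell, and the share of all genes called lower in that fit is not given. The gene that rose was Myc (log2 1.13 and 0.88), and Cdkn2b, an inhibitor of Cdk4 and Cdk6 that TGF-β induces in epithelial cells, fell (log2 −1.51 and −1.24) at levels of 0.613 to 3.26 CPM.

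Some markers of immature myeloid cells moved with TGF-β1 as well. The summed level of 9 progenitor markers was 16.0 to 20.8 CPM untreated and 42.3 to 46.3 CPM with TGF-β1 in floxed-labelled libraries, and 13.6 to 21.3 and 35.8 to 40.4 CPM in knockout-labelled ones. Of the 7 tested, 3 rose and 1 fell in floxed-labelled cells (17.0% and 16.0% of all genes) and 4 rose in knockout-labelled cells (17.6%). Sox4 and Cd34 made up most of the sum, while the defining marker Kit stayed at 0.333 to 0.788 CPM and Hoxa9 and Ms4a2 at 0 to 0.209 CPM. The sum of 12 neutrophil markers, Mpo and Elane among them, overlapped between untreated and TGF-β1 libraries. It lay at 150 to 229 and 178 to 248 CPM in floxed-labelled and 133 to 182 and 130 to 213 CPM in knockout-labelled ones. The summed level of 8 dendritic cell markers went from 6.04 to 8.78 CPM to 11.4 to 13.4 CPM in floxed-labelled libraries, with Itgax the 1 marker above a mean of 1 CPM. Whether these marker changes come from other cells was not tested, nor was any part of such cells in the replication result.

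BMP4 called 0 of the 46 genes in either label by edgeR (0 of all genes were called in floxed-labelled cells and 0.572% in knockout-labelled cells). At an unadjusted p under 0.05 there were 3 and 5 of the 46, against 7.51% and 12.2% of all genes, and DESeq2 called 0 of the 46 in each label. In floxed-labelled cells 35 of 46 changes lay below 0 (median log2 −0.12), and in knockout-labelled cells 40 of 46 lay above 0 (median log2 0.10), where 50.0% of all genes lay below and 49.7% above 0. These signs depended on single libraries. Of the 46 genes, 36 were highest in floxed-labelled untreated library 3 and 41 in knockout-labelled BMP4 library 3, and without them the medians were log2 0.0041 and −0.03. Compared by number, BMP4 was below untreated for 31, 15 and 36 genes in floxed-labelled libraries 1, 2 and 3, and 34, 10 and 5 in knockout-labelled ones, so no direction held in all 3.

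Cdt1 was at 21.2, 23.5 and 21.0 CPM with BMP4 in floxed-labelled cells (log2 0.16, SE 0.10, edgeR adjusted p = 0.746) and at 21.7, 25.7 and 25.5 CPM in knockout-labelled cells (log2 0.22, SE 0.10, edgeR adjusted p = 0.366). Mcm6 was at 76.9, 66.4 and 76.5 CPM (log2 −0.01, SE 0.12) and at 70.4, 80.9 and 110 CPM (log2 0.21, SE 0.12, edgeR adjusted p = 0.543). These values overlapped the untreated ones, and the changes lay well below those with TGF-β1. Orc6 lay above all untreated libraries in floxed-labelled cells (7.67, 8.37 and 7.36 CPM) without passing the test (log2 0.30, SE 0.12, edgeR adjusted p = 0.608). E2f1 lay below all untreated libraries there (40.4, 39.7 and 40.7 CPM), without passing the test (edgeR adjusted p = 0.541). These levels were within the 38.3 to 42.6 CPM seen with TGF-β1. Without the replicate block E2f1 was not called there with either ligand, so whether BMP4 lowered it was not resolved. In knockout-labelled cells E2f1 was at 43.9, 43.9 and 50.0 CPM with BMP4, which overlapped the untreated libraries. All 22 G2/M genes had a change below 0 in floxed-labelled cells (median log2 −0.18), and 19 of 22 in the 15 libraries (median log2 −0.10), while 15 of 22 lay above 0 in knockout-labelled cells (median log2 0.03). By edgeR 0 of them were called in either label. Compared by library number, their summed level in floxed-labelled cells went from 930 to 747, 677 to 677 and 866 to 781 CPM. Library 2 thus showed no fall, and the 22 genes are not 22 replicates.

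**Figure D5:**
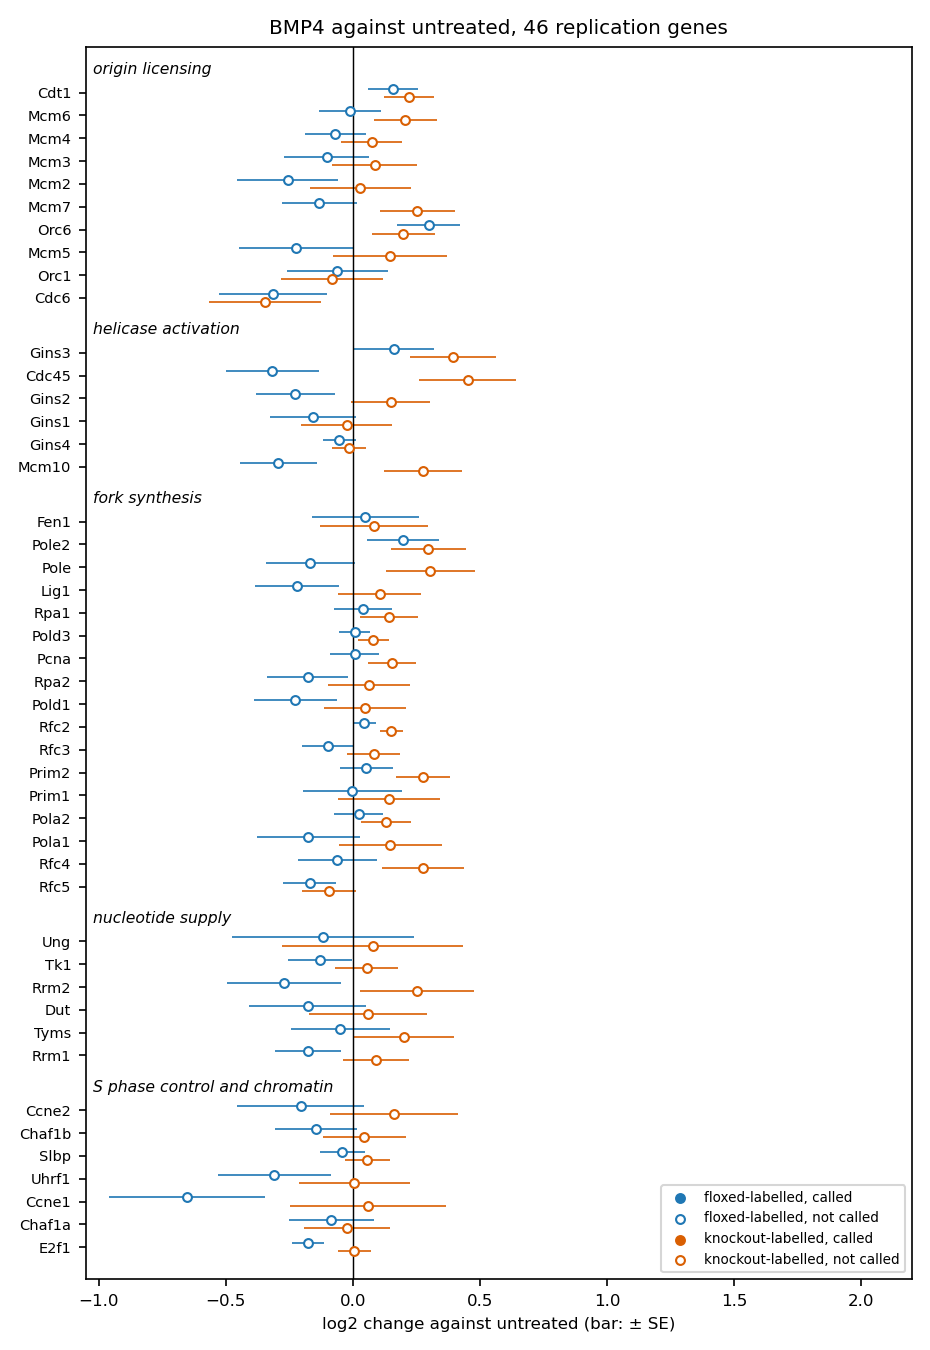
Log2 change with BMP4 against untreated (x axis on the scale of the TGF-β1 plot, bars ± SE) for the 46 genes in the same order, in floxed-labelled (blue) and knockout-labelled (orange) cells. No point is filled, and most blue points lie below 0 and most orange points above it, a split that rests on single libraries.

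Between the genotype labels 0 of the 46 were called, while 2.39% of all genes were called in untreated cells, 0.388% with TGF-β1 and 0.0272% with BMP4. The medians of the 46 were log2 0.0023, −0.06 and 0.19, knockout-labelled minus floxed-labelled. Single libraries changed these medians: they ran from log2 −0.10 to 0.08 untreated, from −0.12 to 0.02 with TGF-β1 and from 0.05 (without knockout-labelled BMP4 library 3) to 0.31 (without knockout-labelled BMP4 library 1) with BMP4, and in the 15 libraries they were log2 0.02, −0.03 and 0.21. Of the 46, 1, 1 and 11 had an unadjusted p under 0.05, against 17.5%, 12.5% and 7.91% of all genes. With BMP4 the gene with the lowest p was Pole, the catalytic subunit of polymerase ε. It lay at 12.8, 14.1 and 22.2 CPM in knockout-labelled and 11.6, 9.65 and 12.2 CPM in floxed-labelled libraries (log2 0.55, SE 0.17, edgeR adjusted p = 0.42). Library 3 was again the highest of the knockout-labelled group. With no low-count filter 10 of the 46 were called higher there, Pole and Mcm5 among them, while 0.451% of all genes were called higher. For the difference of BMP4 responses between the labels, Cdc45 had the lowest p (log2 0.77, SE 0.26, edgeR adjusted p = 0.621). In the 2 tests of a difference between responses edgeR called 0 of the 46, with 0.00681% and 0 of all genes called. At an unadjusted p under 0.05 there were 0 (TGF-β1) and 2 (BMP4) of the 46, against 3.36% and 5.71% of all genes, and DESeq2 called 0 of the 46 as well.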

How the data were processed

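The submitters' processing notes name TopHat2 2.0.9, HTSeq 0.6.1, Cufflinks 2.1.1 and the build mm10 (GRCm38.p6), for 150 bp paired reads. The strand setting of the counting is not given in the sources used here. Per the file headers, the deposited table holds the count of reads for each gene, used unchanged. The authors' FPKM values equalled count over gene length times a constant per library to within 5.1e-15, and the deposited gene lengths served only for that check. A further 78 columns of per-sample values were not used.

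The test was edgeR 4.0.16's quasi-likelihood F test (R 4.3.3) on counts that passed filterByExpr, with TMM factors of 0.978 to 1.02. All 18 libraries entered with 1 mean for each group, which left 12 residual degrees of freedom, and empirical Bayes added 6.41. The biological coefficient of variation was 8.86%. P-values were two-sided and adjusted by Benjamini-Hochberg over the 14684 genes. Mean log2 CPM used a prior count of 2. The scripts were tested on simulated data. Within groups no library repeated another. Chi-square over its degrees of freedom was 3.694 to 28.65 for each such pair, where sampling noise alone gives about 1. Pairs across groups were not checked in this way.

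Whether library numbers pair the samples was checked on deviations from group means over 8601 genes. All 18 pairs of the same label and number correlated above 0.1 (r 0.334 to 0.731), against 2 of 27 pairs of the same number across labels, so numbers pair libraries within a genotype label. The block is given where it changed a call among the 46 genes.

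The 46 genes, their roles and the other lists were chosen with earlier results of these data known. All 46 may be named. Of the 46 other replication genes, up to 3 called genes in each direction by lowest adjusted p were named. Promoters were shown for the gene with the lowest adjusted p, the next with an E2F match and the next with none. Alternatives were RLE or total count scaling, no low-count filter, a mean of at least 1 CPM, DESeq2 1.42.0, a fit of only the groups compared, the block over all groups or within genotype, 15 libraries without the floxed-labelled libraries numbered 1, and each library left out in turn. The 15 libraries with the block were added after seeing the data.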

Additional observations from a re-analysis of the deposited data

How the results depend on the processing

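With TGF-β1 in floxed-labelled cells the count of called genes among the 46 was 16. It rose to 25 with the replicate block within genotype, fell to 9 in the 15 libraries, and ran from 7 to 17 with 1 library left out. In knockout-labelled cells it was 16, with 20 under the replicate block, and ran from 10 to 17 with 1 library left out. With BMP4 the knockout-labelled against floxed-labelled count of 0 became 10 with no low-count filter, where 29506 genes were tested. The cause of these shifts was not tested. The count of all genes called moved more: over the alternatives it ran from 0 to 69 for BMP4 in floxed-labelled cells (0 as reported), from 2 to 472 in knockout-labelled cells (84), from 27 to 817, 0 to 394 and 0 to 287 between the labels untreated, with TGF-β1 and with BMP4 (351, 57 and 4), and from 0 to 8 and 0 to 48 for the differences of responses (1 and 0). All other counts of the 46 stayed within 1.5 times, and those for BMP4 against untreated, for the genotype labels in untreated and TGF-β1-treated cells and for the differences of responses were 0 in each alternative run. Of the values of single genes under the alternatives, 2670 kept their direction and side of the threshold, 138 changed sign without being called in either fit, 59 passed the threshold where they had not, 77 lost it and 0 called values changed sign. Cdt1, Mcm6, Mcm4, Ung, Tk1 and Pold3 were called in all 16 alternatives in both labels. Genes near 1 CPM, such as Ung, have the widest errors.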
